A study of Mus musculus with 6 samples.

Results

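The collagen prolyl and lysyl hydroxylases of peritoneal macrophages are described here with the partner protein of the prolyl hydroxylase alpha subunits. The members were taken by gene symbol and are the alpha subunits P4ha1, P4ha2 and P4ha3, their partner P4hb, the lysyl hydroxylases Plod1, Plod2 and Plod3, and the transmembrane prolyl hydroxylase P4htm. All 8 symbols had 1 row each among the 34745 genes of the deposited table. The macrophages came from the peritoneal cavity of C57BL/6 mice and received either vehicle or 0.1 mM R-2-hydroxyglutarate (R-2-HG), each for 24 h. Each group had 3 libraries, numbered 1 to 3 in the titles, and the labels do not say what the number marks or whether libraries came from separate animals or cultures. No genetic change is given for either group, and the cells' purity is not stated. The p-values therefore measure the spread between these libraries, which may be technical.

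Collagen is hydroxylated on prolines and lysines while its chains are still in the endoplasmic reticulum. Hydroxyproline stabilises the triple helix, and hydroxylysine carries sugars and anchors cross-links between molecules. The enzymes use iron, oxygen, ascorbate and 2-oxoglutarate, and R-2-HG resembles 2-oxoglutarate and can compete with it, so that the comparison asks whether the macrophages changed the messages of these enzymes. Macrophages make few fibrillar collagens, but they secrete or display other proteins with collagen-like stretches, such as the complement component C1q and the scavenger receptors Marco and Msr1. The values are messenger RNA levels, and enzyme activity was not measured.

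The level of each gene is given in FPKM, fragments scaled to transcript length and to the library's total, which allows levels of different genes to be set side by side. From the spacing of low values each library held an estimated 13680000 to 16600000 fragments. Genes above 0 numbered 14893, 15270 and 13872 with vehicle (numbers 1 to 3) and 14938, 14604 and 12817 after R-2-HG. They were fewest in number 3 of both groups. Macrophage markers were present throughout, with 8 of 8 above 1 FPKM on average. Their summed level was 20354 to 22934 FPKM with vehicle and 18879 to 25694 FPKM after R-2-HG. Most of this sum was Lyz2, at 18428 to 21164 FPKM with vehicle and 16924 to 23901 FPKM after R-2-HG. Fibroblast markers differed widely between libraries, and their summed level was 88.5, 23.4 and 3.82 FPKM with vehicle (numbers 1 to 3). After R-2-HG it was 73.2, 12.3 and 3.93 FPKM. In bulk RNA, fewer cells of a type and less RNA per cell cannot be told apart. Mesothelial markers summed to 0.491 to 5.03 FPKM with vehicle and 0.719 to 8.61 FPKM after R-2-HG, highest in both groups in library 1, and Muc16 was listed at 0 in all 6 libraries.

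The promoters of 7 of the 8 members, all but Plod2, were matched by symbol in RefSeq (GRCm38.p6). The 250 bases before the transcription start of P4ha1, P4hb and Plod3 are shown because P4ha1 and P4hb encode the catalytic and the carrier subunit of 1 enzyme and Plod3 is the most abundant lysyl hydroxylase message. P4ha1 is a known target of the hypoxia-inducible factors, whose hydroxylases also use 2-oxoglutarate. Capitals mark ACGTG and GCGTG, the core letters of the binding site of these factors, on either strand. The stretches lie at chr10:59323046-59323295 on the plus strand (P4ha1), chr11:120573254-120573503 on the minus strand (P4hb) and chr5:136986769-136987018 on the plus strand (Plod3).
P4ha1: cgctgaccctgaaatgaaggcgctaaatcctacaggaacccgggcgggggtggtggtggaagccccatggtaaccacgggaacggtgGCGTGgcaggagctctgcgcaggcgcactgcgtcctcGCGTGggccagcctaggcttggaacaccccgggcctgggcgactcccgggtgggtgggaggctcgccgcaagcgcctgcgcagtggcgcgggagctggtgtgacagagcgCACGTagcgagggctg
P4hb: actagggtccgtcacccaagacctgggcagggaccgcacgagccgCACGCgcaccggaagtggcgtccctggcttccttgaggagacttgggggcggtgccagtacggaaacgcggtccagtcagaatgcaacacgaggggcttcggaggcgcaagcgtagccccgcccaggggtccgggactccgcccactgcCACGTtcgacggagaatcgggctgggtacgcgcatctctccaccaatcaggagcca
Plod3: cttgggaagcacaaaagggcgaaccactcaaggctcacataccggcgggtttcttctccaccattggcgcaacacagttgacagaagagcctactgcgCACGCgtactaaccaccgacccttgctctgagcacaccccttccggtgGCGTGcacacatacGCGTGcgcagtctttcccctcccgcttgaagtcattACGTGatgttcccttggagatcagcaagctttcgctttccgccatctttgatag

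The P4ha1 stretch held 3 matches, which began 163, 126 and 16 bases before the start. The P4hb stretch held 2 and the Plod3 stretch 4. P4ha2 also held 3 matches, Plod1 held 1, and P4ha3 and P4htm held 0. None of the matches lay in the longer motif CACGTG. Of 32851 RefSeq promoter stretches of the same length, 38.6% held at least 1 match and 6.58% held 3 or more. A match describes the letters and is no evidence of binding.

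P4hb was by far the most abundant member. It encodes protein disulfide isomerase, which keeps the alpha subunits soluble in the endoplasmic reticulum and also serves other proteins there. P4hb, on chromosome 11 (120560298 to 120573253, GRCm38, minus strand), stood at 166, 151 and 148 FPKM with vehicle (numbers 1 to 3) and at 155, 142 and 158 FPKM after R-2-HG. Its mean of 153 FPKM exceeded that of 98.9% of the genes with any value above 0. The groups overlapped, and the lowest and the highest library differed by a factor of 1.16.

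The catalytic alpha subunits were represented almost wholly by P4ha1. P4ha1, on chromosome 10 (59323296 to 59373304, plus strand), stood at 12.6, 9.18 and 9.74 FPKM with vehicle (numbers 1 to 3) and at 11.3, 8.35 and 7.53 FPKM after R-2-HG. In both groups library 1 was highest, and each R-2-HG library lay below the vehicle library of the same number. P4ha2, on chromosome 11 (54100095 to 54131665, plus strand), stood at 0.536, 0.433 and 0.517 FPKM with vehicle and at 0.756, 0.421 and 0.723 FPKM after R-2-HG, in the same order. It was lowest in library 2 of both groups. P4ha3, on chromosome 7 (100285520 to 100319699, plus strand), was listed at 0.181, 0 and 0.0398 FPKM with vehicle and at 0.0809, 0.113 and 0 FPKM after R-2-HG. At the estimated depth the P4ha3 values came to at most 6.8 fragments and the P4ha2 values to between 13 and 28 fragments, taking the longest coding transcript.

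Plod1 and Plod3 were the main lysyl hydroxylase messages. Plod3, which hydroxylates lysine and also attaches sugars to hydroxylysine, is on chromosome 5 (136987019 to 136996648, plus strand). It stood at 17.9, 16.9 and 21.6 FPKM with vehicle (numbers 1 to 3) and at 18.8, 17.9 and 19.9 FPKM after R-2-HG. Library 3 was highest in both groups and library 2 lowest. Exons of Plod3 share 529 bases with Znhit1 on the opposite strand and 9 bases with Mir702, and since strand handling is not given, reads of these genes may be mixed. Plod1, which acts on lysines of the triple helix, is on chromosome 4 (147909753 to 147936767, minus strand). It stood at 12.3, 11.9 and 12.4 FPKM with vehicle and at 13.3, 10.8 and 13.8 FPKM after R-2-HG, and the vehicle libraries lay within the range of the R-2-HG libraries.

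Plod2 was low and varied most among the members above 0 in every library. It acts on lysines in the collagen telopeptides, from which the most durable cross-links form, and lies on chromosome 9 (92542223 to 92608428, plus strand). Plod2 stood at 1.72, 0.601 and 0.374 FPKM with vehicle (numbers 1 to 3) and at 1.11, 0.681 and 0.313 FPKM after R-2-HG. Library 1 was highest and library 3 lowest in both groups, and the highest and the lowest value differed by a factor of 5.48. These values came to between 16.8 and 99.5 estimated fragments. Exons of Plod2 share 346 bases with the model Gm38391 on the opposite strand.

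P4htm was at the limit of detection. It encodes a prolyl hydroxylase anchored in the membrane of the endoplasmic reticulum that is known to act on hypoxia-inducible factor rather than on collagen. P4htm, on chromosome 9 (108578862 to 108597667, minus strand), was listed at 0, 0.0330 and 0 FPKM with vehicle (numbers 1 to 3) and at 0.0104, 0.0373 and 0 FPKM after R-2-HG. The highest values of P4htm came to 0.9 estimated fragments, so no difference in P4htm was detectable at this depth.

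**Figure D1:**
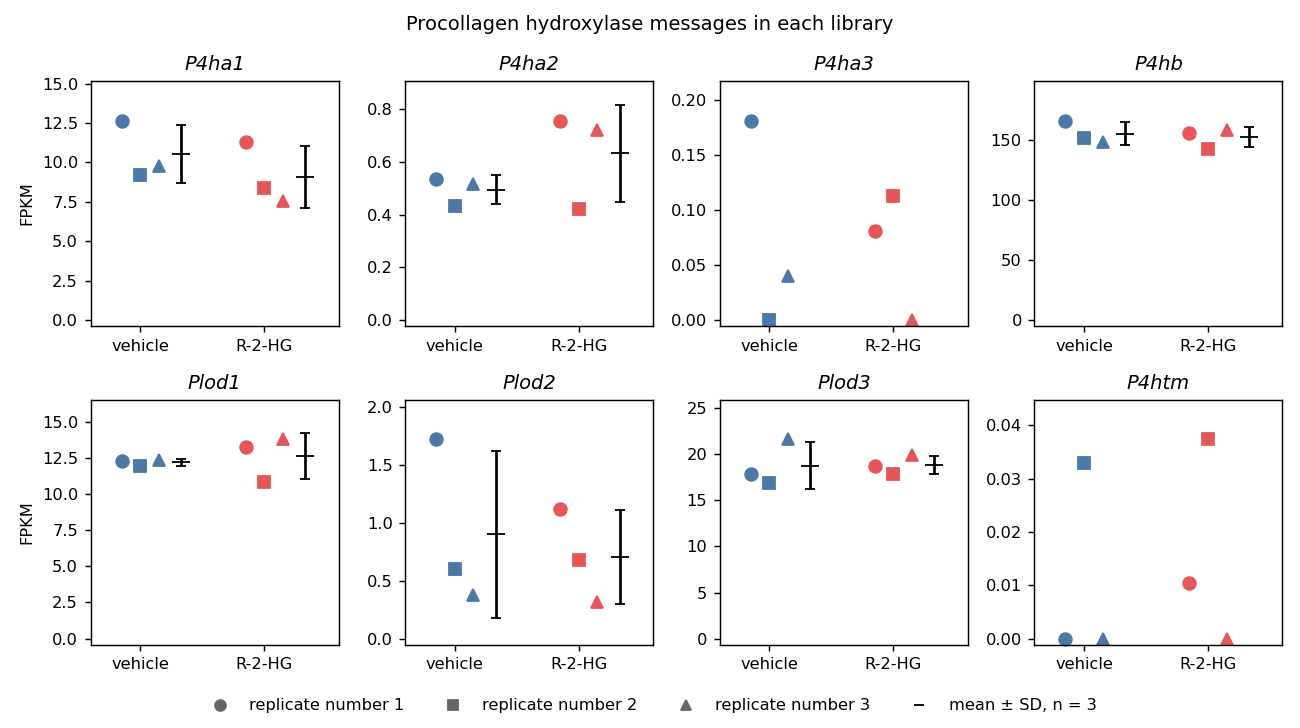
FPKM (linear axis from 0) of the 8 members in vehicle (blue) and R-2-HG (red) libraries, with marker shapes for the replicate numbers and, for members above 0 in every library, the mean ± SD of 3 libraries in black. P4hb stays between 142 and 166 FPKM, while Plod2 runs from 0.313 to 1.72 FPKM with library 1 highest in both groups.

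The order of the mean levels over 6 libraries was P4hb, Plod3, Plod1, P4ha1, Plod2, P4ha2, P4ha3 and P4htm. P4hb exceeded Plod3 by a factor of 8.15, Plod3 exceeded Plod1 by 1.52, and P4ha1 exceeded Plod2 by 12.2, each in 6 of 6 libraries. P4ha2 exceeded P4ha3 by a factor of 8.16, also in 6 of 6 libraries. For each of these 4 neighbouring pairs the exact two-sided sign-flip permutation test gave p = 0.031, the smallest that 6 libraries allow, and an adjusted p = 0.0547 over the 7 neighbouring pairs, which misses 0.05. Plod1 exceeded P4ha1 in 5 of 6 libraries (adjusted p = 0.0875, exact permutation test), Plod2 exceeded P4ha2 in 4 (adjusted p = 0.406), and P4ha3 exceeded P4htm in 4 (adjusted p = 0.146). These neighbours were not separated beyond their spread.

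None of the members passed the test between the groups. The test was limma on log2(FPKM + 1) for the 9701 genes whose 6 libraries averaged 1 FPKM or more. P4hb, P4ha1, Plod1 and Plod3 were among them. Of these 4 members 0 were called at an adjusted p under 0.05, against 0% of all genes tested, and 0 had an unadjusted p under 0.05, against 1.44% of all genes. Of the 4, 2 averaged more and 2 less after R-2-HG, against 51.6% of all genes that averaged less. The groups overlapped for all 4, and they were separate for 4.69% of all genes tested. The median change was -0.0084 on the log2(FPKM + 1) scale over the 4 members and -0.0044 over all genes tested.

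The intervals show what sizes of change remain possible, first in the fit without the replicate number. P4hb had a vehicle mean of 155 ± 9.45 FPKM and an R-2-HG mean of 152 ± 8.29 FPKM (SD, n = 3 each), a log2 change of -0.03 (SE 0.10, 95% interval -0.26 to 0.20). Plod1 averaged 12.2 ± 0.224 and 12.6 ± 1.57 FPKM, a log2 change of 0.04 (SE 0.12, interval -0.24 to 0.32). For Plod3 the means were 18.8 ± 2.51 and 18.9 ± 1.02 FPKM and the log2 change 0.01 (SE 0.12, interval -0.27 to 0.29). The adjusted p was 0.99998 for each of the 4 members (limma). The directions of P4hb, Plod1 and Plod3 turned when single libraries were left out, so none is given as a direction.

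P4ha1 had the largest difference of the 4. It had a vehicle mean of 10.5 ± 1.85 FPKM and an R-2-HG mean of 9.05 ± 1.97 FPKM (SD, n = 3 each), a log2 change of -0.20 (SE 0.18, 95% interval -0.61 to 0.21). The change within the pairs of the same number was -0.15, -0.12 and -0.33 on the log2 scale for numbers 1, 2 and 3. P4ha1 was thus lower in 3 of 3 pairs, as were 11.8% of all genes tested. Its unadjusted p was 0.288 in limma and 0.0806 once the number was blocked, where 3.39% of all genes had an unadjusted p under 0.05, and it did not pass either way. The exact permutation test of 3 against 3 libraries gave p = 0.4, with 0.1 the smallest it allows. Leaving out single libraries moved the change of P4ha1 between -0.36 and -0.07, with -0.07 without vehicle library 1 and -0.09 without R-2-HG library 3.

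The members below the filter were fitted without a filter, and none of the 17294 genes then tested was called. Plod2 had a vehicle mean of 0.897 ± 0.719 FPKM and an R-2-HG mean of 0.703 ± 0.401 FPKM (SD, n = 3 each), with a log2 change of -0.12 (SE 0.30, 95% interval -0.84 to 0.61). The spread within the groups exceeded the difference between them, and leaving out single libraries moved the change from -0.32 to 0.17. P4ha2 averaged 0.495 ± 0.0550 and 0.633 ± 0.184 FPKM, with a log2 change of 0.12 (SE 0.13, interval -0.19 to 0.44) that ran from 0.07 to 0.22 as single libraries were left out. On this scale a change of a gene under 1 FPKM is strongly understated.

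**Figure D2:**
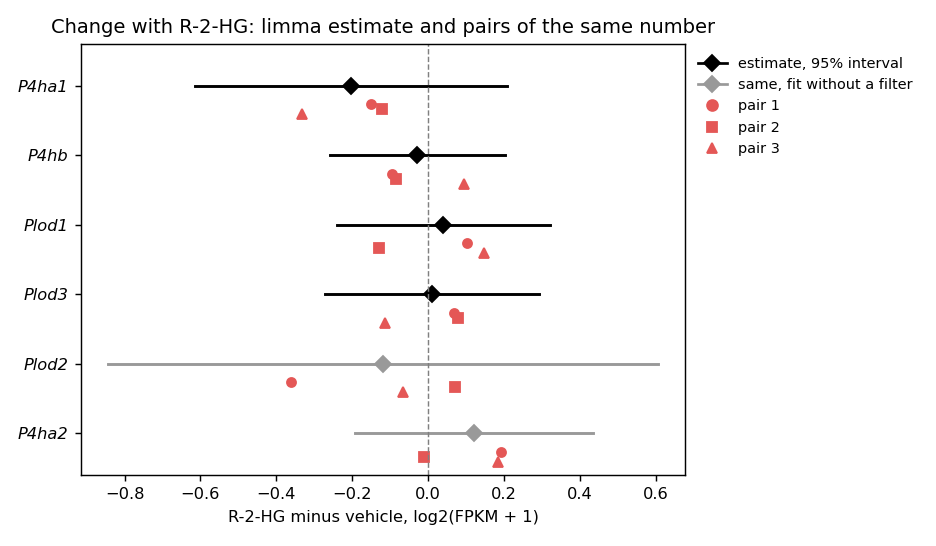
R-2-HG minus vehicle on the log2(FPKM + 1) scale for 6 members, with the limma estimate and 95% interval as diamonds and lines (grey for the fit without a filter) and the change within each pair of the same replicate number in red. All intervals, from fits without the replicate number, include 0, and only the 3 pairs of P4ha1 lie on 1 side, between -0.33 and -0.12.

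P4ha1 made up nearly all alpha subunit messages in each library. Its share of the summed alpha subunit FPKM was 94.6, 95.5 and 94.6% with vehicle (numbers 1 to 3) and 93.1, 94.0 and 91.2% after R-2-HG. Each R-2-HG library lay below every vehicle library. This share was not tested, and it depends on the few fragments of P4ha2 and P4ha3. For the levels of single genes the groups were separate for 4.69% of all genes tested. The share of P4ha2 averaged 4.51 ± 0.502% in vehicle and 6.58 ± 2.03% in R-2-HG (SD, n = 3 each), and that of P4ha3 was at most 1.36%. The ratio of P4ha1 to P4ha2 was 23.6, 21.2 and 18.8 with vehicle (numbers 1 to 3) and 14.9, 19.8 and 10.4 after R-2-HG, so that the groups overlapped in this measure. On log2(FPKM + 1) the difference between P4ha1 and P4ha2 was 2.93 ± 0.187 in vehicle and 2.61 ± 0.266 in R-2-HG (SD, n = 3 each). The groups did not overlap there, and the exact two-sided permutation test gave p = 0.1, the smallest it allows, and an adjusted p = 0.4 over 4 isoenzyme pairs. With a pseudocount of 0.1 the adjusted p was 0.8. The comparison rests on the few fragments of P4ha2.

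P4hb messages outnumbered those of the alpha subunits per length in all libraries. The ratio of P4hb to the summed alpha subunits was 12.4, 15.7 and 14.4 with vehicle (numbers 1 to 3) and 12.8, 16.0 and 19.1 after R-2-HG, and the groups overlapped. Among the lysyl hydroxylases Plod3 held 58.8 ± 3.67% of the summed FPKM in vehicle and 58.7 ± 2.10% in R-2-HG (SD, n = 3 each). Plod1 held 38.4 ± 2.33 and 39.1 ± 1.99%. The share of Plod2 was 5.39, 2.04 and 1.09% with vehicle (numbers 1 to 3) and 3.36, 2.32 and 0.921% after R-2-HG. It was highest in library 1 of both groups. For the pairs Plod1 and Plod2, Plod1 and Plod3, and Plod2 and Plod3 the response to R-2-HG differed by 0.16, 0.03 and -0.13 on the log2(FPKM + 1) scale (adjusted p = 0.9 each, exact permutation test).

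**Figure D3:**
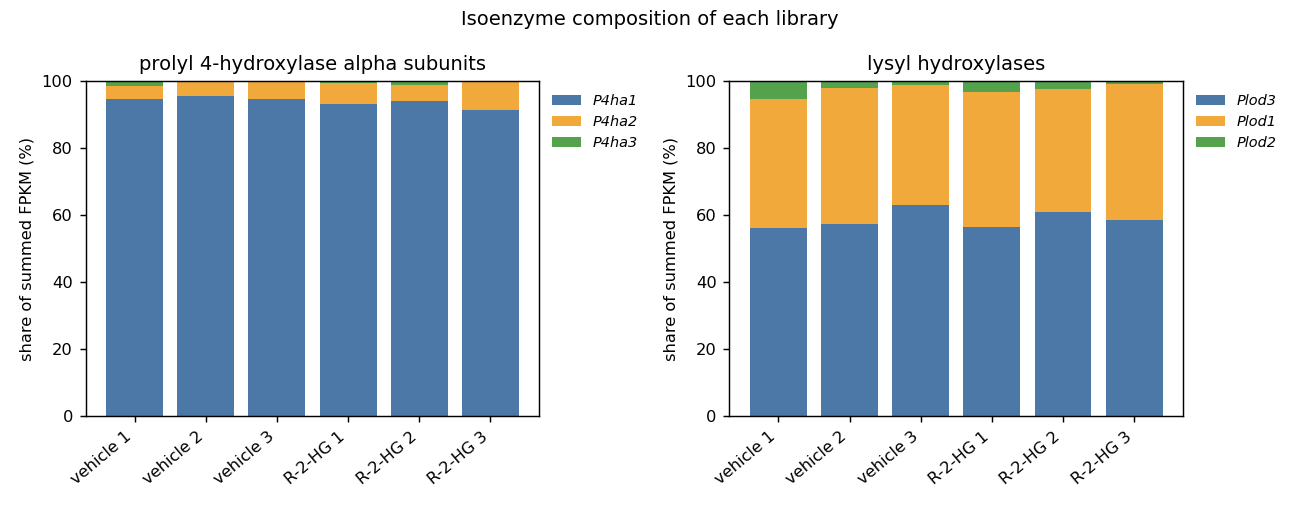
Stacked bars of each isoenzyme's share of the summed FPKM (%, axis from 0 to 100) in the 6 libraries, for the alpha subunits on the left and the lysyl hydroxylases on the right. P4ha1 holds between 91.2 and 95.5% of the alpha subunit messages, and Plod2 between 0.921 and 5.39% of the lysyl hydroxylase messages.

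P4ha1 and Plod2 were highest in both libraries of number 1, and neither passed a test of the number. A limma F test of the number, with treatment in the fit, called 0 of the 4 tested members, against 1.6% of all genes. P4ha1 averaged 12.0, 8.77 and 8.64 FPKM in numbers 1, 2 and 3 (unadjusted p = 0.0184, adjusted p = 0.163, limma), and 21% of all genes had an unadjusted p under 0.05. In the fit without a filter Plod2 averaged 1.42, 0.641 and 0.343 FPKM (unadjusted p = 0.0129, adjusted p = 0.227), where 15.2% of genes had an unadjusted p under 0.05. Both libraries of number 1 lay above the other 4 for P4ha1 and Plod2, as they did for 11.9% of all genes with any value above 0 and for 11.5% of the genes tested. Plod2 was also lowest in both libraries of number 3 without overlap, as were 4.4% of all genes with any value above 0. The unadjusted p of P4hb, Plod1 and Plod3 was 0.360, 0.322 and 0.126. The summed fibroblast markers, given above, were also highest in number 1 and lowest in number 3, with 10 of 10 markers highest in both libraries of number 1, and 4 of 10 at 0 in R-2-HG library 3. Summed neutrophil markers were 54.7, 39.5 and 28.7 FPKM with vehicle (numbers 1 to 3) and 46.9, 29.8 and 30.3 FPKM after R-2-HG. Most of this sum was Mmp8 and S100a8, the only 2 of 6 neutrophil markers that were highest in both libraries of number 1. S100a9, Retnlg, Ngp and Ly6g each averaged 0.924 FPKM or less over the 6 libraries. Summed T and NK cell markers were highest in number 1, with 3.94 FPKM in the vehicle and 1.75 FPKM in the R-2-HG library. B cell markers did not follow the number, with 34.3 FPKM in vehicle library 1 and 6.17 to 10.9 FPKM in the other libraries. Of the 8 macrophage markers 0 were called between the numbers and 7 had an unadjusted p under 0.05. The endothelial marker Vwf, chosen after its values were seen, was lowest in number 1 and highest in number 3. It stood at 5.84, 9.23 and 13.1 FPKM with vehicle (numbers 1 to 3) and at 5.72, 9.05 and 10.1 FPKM after R-2-HG. The other endothelial markers did not follow Vwf. Kdr stood at 1.57, 1.93 and 1.80 FPKM with vehicle and at 1.47, 1.72 and 1.17 FPKM after R-2-HG. Pecam1, Cdh5 and Tek each averaged 0.154 FPKM or less over the 6 libraries. The part of these markers in the values of Plod2 and P4ha1 was not tested.

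Collagen chains and proteins with collagen-like stretches, the substrates of these enzymes, differed strongly between the numbers. Of 20 such genes 15 were tested, and the F test of the number called 13 of the 15, against 1.6% of all genes. Like the other lists, this one was chosen with earlier results of these data known, so its count is no independent test. The 13 were Col1a1, Col1a2, Col3a1, Col4a1, Col4a2, Col5a1, Col5a2, Col6a1, Col6a2, C1qa, C1qb, C1qc and Marco, and the scavenger receptor genes Msr1 and Colec12 did not pass. All 15 were highest in number 1 and lowest in number 3 without overlap, against 4.12% of all genes tested. Col1a1, a chain of fibrillar collagen and one of 3 chains that are also on the fibroblast list, stood at 31.3, 10.9 and 1.46 FPKM with vehicle (numbers 1 to 3) and at 29.7, 5.35 and 0.965 FPKM after R-2-HG (adjusted p = 0.00677). C1qb, a chain of C1q, stood at 745, 545 and 348 FPKM and at 728, 492 and 399 FPKM in the same order (adjusted p = 0.0336), and Marco at 100.1, 36.2 and 27.8 FPKM and at 91.4, 35.4 and 30.8 FPKM (adjusted p = 0.00677). The calls depended on the settings. Without a filter 0 of the 20 were called and 17 had an unadjusted p under 0.05, and with numbers 2 and 3 only 0 of 15 were called and 14 had an unadjusted p under 0.05. Between R-2-HG and vehicle 0 of the 15 were called, of which 12 averaged less and 3 more (median log2 change -0.12, against -0.0044 over all genes), with Col6a1 at -0.43 (SE 0.9998) and Col6a2 at -0.31 (SE 0.75). These errors include the spread between numbers. With the replicate number as a block 0 of the 15 were called and 3 had an unadjusted p under 0.05, against 3.39% of all genes, as had 2 of the 5 fibroblast markers tested. Col1a1, Col3a1 and Col6a1 were lower after R-2-HG in 3 of 3 pairs, as were 11.8% of all genes.

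In the prolyl 3-hydroxylase complex 3 of 6 genes were tested, 0 were called and all 3 averaged less after R-2-HG (median log2 change -0.07), against 51.6% of all genes that averaged less. Its scaffold Crtap was at -0.11 (SE 0.14) and the cyclophilin Ppib at -0.07 (SE 0.14), each within its SE. Among the folding and glycosylation genes of the endoplasmic reticulum 13 of 15 were tested, 0 were called, and 4 were higher and 9 lower (median -0.03). There the cation channel gene Tmem38b was at -0.15 (SE 0.11) and the oxidase gene Ero1l at 0.10 (SE 0.12). In this list the F test of the number called 1 of 13 genes, against 1.6% of all genes, and that gene was Fkbp10, a prolyl isomerase that acts with lysyl hydroxylases. Fkbp10 stood at 2.67, 1.02 and 0.121 FPKM with vehicle (numbers 1 to 3) and at 3.24, 0.473 and 0.122 FPKM after R-2-HG (adjusted p = 0.0383). The call of Fkbp10 was lost with a pseudocount of 0.1, quantile normalization, plain eBayes, no filter, or numbers 2 and 3 only. The following were chosen after their values were seen. Serpinh1, the collagen chaperone HSP47, stood at 26.7, 9.88 and 1.68 FPKM and at 27.04, 4.45 and 4.18 FPKM in the same order (adjusted p = 0.0610). Colgalt1, which attaches galactose to hydroxylysine, stood between 110.1 and 115 FPKM in all 6 libraries.

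Procollagen export and processing had 5 of 12 genes tested, of which 0 were called between the groups, 2 higher and 3 lower (median log2 change -0.0037). The export receptor Mia3 was at 0.09 (SE 0.11) and the coat protein gene Sec23a at 0.11 (SE 0.16). The number's F test called 1 of the 5, against 1.6% of all genes, and that gene was Bmp1, the procollagen C-proteinase. Bmp1 stood at 5.17, 1.89 and 0.0641 FPKM with vehicle (numbers 1 to 3) and at 3.92, 0.798 and 0.236 FPKM after R-2-HG (adjusted p = 0.0350). Of 5 lysyl oxidases, which start the cross-links from lysine and hydroxylysine, 2 were tested, 0 were called between the groups and both were higher (median 0.04). Loxl2 was at 0.07 (SE 0.54) and Lox at 0.01 (SE 0.40), and Loxl2 was called between the numbers (adjusted p = 0.0374, 1 of 2 genes). The calls of Bmp1 and Loxl2 were lost in the same 5 settings as that of Fkbp10. Of 10 fibroblast markers 5 were tested, and all 5 had lower means after R-2-HG (median -0.26), against 51.6% of all genes. The changes ran from -0.48 (Col3a1) to -0.08 (Dcn), each within its SE, and the SEs from 0.48 (Pdgfra) to 1.22 (Col1a1). Col1a1, Col1a2 and Col3a1 were also counted among the collagen chains, so the counts of these lists are not separate. Between the groups 0 of the 5 were called, and between the numbers 5 of 5, against 1.6% of all genes. Without a filter 0 of the 10 were called between the numbers, and with numbers 2 and 3 only 0 of 5. Their part in the values of Fkbp10, Bmp1 and Loxl2 was not tested.

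**Figure D4:**
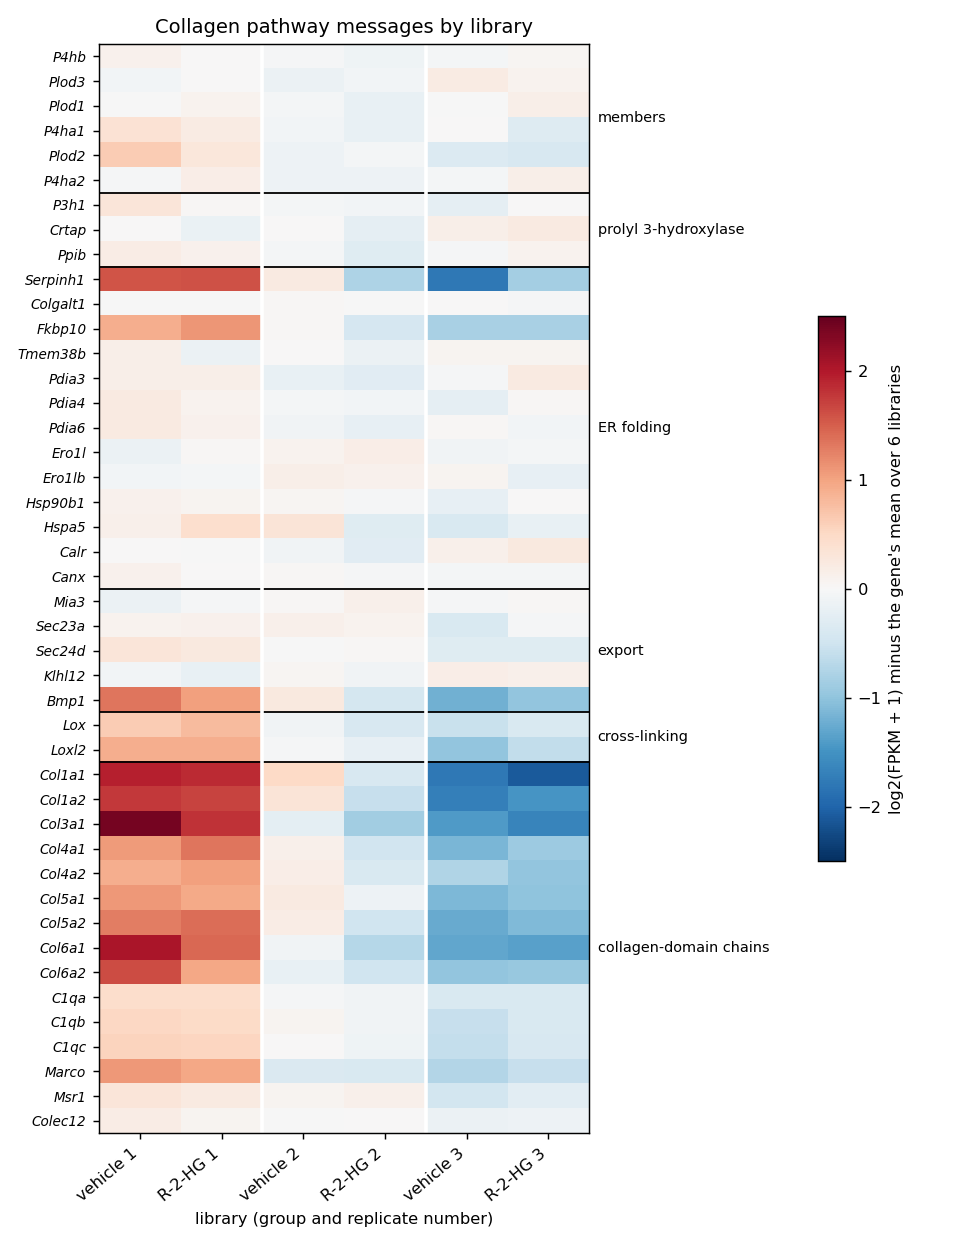
Heat map of log2(FPKM + 1) minus the gene's mean over 6 libraries (red above, blue below) for 6 members and the tested genes of 5 collagen pathway lists, with libraries ordered by replicate number. P4hb, Plod1 and Plod3 are pale throughout, and Col1a1, Fkbp10, Bmp1 and Marco are red in number 1 and blue in number 3.

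The genes whose pattern over the 6 libraries was most like that of a member were found by Pearson's r on log2(FPKM + 1), as a description, since 6 libraries of shared numbers give many high values. For P4ha1 they were Erp44, a thioredoxin-like protein of the early secretory pathway (r = 0.990), Pvrl2 (0.984) and Hsp90ab1 (0.984), and 124 genes had r over 0.9. For P4hb they were Pgk1, a glycolytic enzyme (0.994), Gm15501 (0.992) and Elp3 (0.989). For Plod1 they were Rpl31 (0.996), Rab8a (0.994) and Pqlc3 (0.992), and for Plod3 they were Crlf2 (0.994), Tpp1, a lysosomal peptidase (0.984), and Spryd3 (0.980). Erp44 stood at 20.9, 15.9 and 16.3 FPKM with vehicle (numbers 1 to 3) and at 18.9, 15.4 and 13.8 FPKM after R-2-HG. Like P4ha1 it was highest in library 1 of both groups and lower with R-2-HG in each pair. Since Erp44 was picked by its r with P4ha1, this likeness is no separate finding.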

How the data were processed

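RNA-seq of 6 libraries was analysed. The authors deposited 1 table with a value per gene and library; its header names no unit, and the values are taken as FPKM, since Cuffdiff is named in the submitters' processing notes and low values come in steps of whole fragments per transcript length. Between 95.8% and 97.2% of low values per library, in 7051 genes with a single transcript over 1000 bases, lay within 0.1 of a whole number. Bowtie 0.12.2 and the builds mm8 and mm10 are also named there, without role or order; for annotation and strand handling the sources used here give nothing. Locations and lengths came from GENCODE M21 (GRCm38), which held 34267 of the identifiers. Of the symbols, 27 had been turned into dates and were restored from the identifiers; of 65 repeated symbols the most abundant model was used.

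FPKM keeps no counts, so tests for counts could not be applied. Genes averaging 1 FPKM or more were tested with limma 3.58.1 (R 4.3.3; trended, robust eBayes; two-sided; Benjamini-Hochberg over all genes; threshold 0.05) on log2(FPKM + 1), which understates changes of low genes. The replicate number was tested by an F test in the fit with treatment. Single values were compared by exact permutation tests. Deviations from group means of same-numbered libraries correlated at 0.54, 0.37 and 0.36, so by the criterion that every pair exceeds 0.1 the numbers pair the samples; the pairing comes from the data. Python 3.11.15, pandas 2.3.3, numpy 2.4.6 and matplotlib 3.10.9 were used.

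The members and lists were chosen with earlier results of these data known. Named are all members, the 3 most similar genes of each tested member, up to 2 genes per list with the smallest p and any called gene; others are said to be chosen later. The settings that leave out both libraries of a number, keep numbers 2 and 3 only, or drop the treatment term were added after seeing the data.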

Additional observations from a re-analysis of the deposited data

How the results depend on the processing

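Between R-2-HG and vehicle the count of called genes was 0 under a pseudocount of 0.1, both filters, both scalings, plain eBayes and the replicate block. Leaving out single libraries gave 0 to 1 (1 without R-2-HG library 1 and 1 without R-2-HG library 3, neither a member). Leaving out both libraries of a number gave 0. For the number, 155 genes were called; the count was 0 without a filter (2631 at an unadjusted p under 0.05), 51 with plain eBayes, 349 without the treatment term and 15 with numbers 2 and 3 only. The cause was not tested. With the replicate block the calls of P4ha1, P4hb, Plod1 and Plod3 did not change (the other members were not fitted with it), and P4ha1 kept -0.20 (95% interval -0.44 to 0.03).

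The directions of P4hb, Plod1 and Plod3 were not stable. Leaving out single libraries gave log2 changes of -0.060 to 0.021 for P4hb, -0.022 to 0.14 for Plod1 and -0.059 to 0.11 for Plod3. Without both libraries of number 1 P4hb was at 0.0053 and Plod3 at -0.018, without both of number 2 at 0.00020 and -0.023, and without both of number 3 Plod1 was at -0.013. The differences in response ran from -0.13 to 0.37 for Plod1 and Plod2, -0.063 to 0.092 for Plod1 and Plod3, -0.43 to 0.19 for Plod2 and Plod3, and -0.42 to -0.17 for P4ha1 and P4ha2. P4ha3 and P4htm are limited by depth, with 1 fragment of a 2 kb transcript worth 0.0301 to 0.0365 FPKM.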

Other observations

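Cofactor supply and hypoxia-inducible genes, which bear on these enzymes, held no gene called between R-2-HG and vehicle. Of 11 genes of ascorbate, iron and 2-oxoglutarate supply 10 were tested, of which 4 averaged more and 6 less after R-2-HG (median log2 change -0.0092, against -0.0044 over all genes tested). Slc23a2, an ascorbate transporter, stood between 22.7 and 28.3 FPKM in the 6 libraries, and the related transporter gene Slc23a1 was listed at 0 in all 6; both were chosen after their values were seen. The 2-oxoglutarate carrier Slc25a11 was at -0.09 (SE 0.10) and Glud1, which makes 2-oxoglutarate from glutamate, at -0.07 (SE 0.10). Of 15 hypoxia-inducible genes 13 were tested, of which 5 averaged more and 8 less (median -0.03). Mxi1, an antagonist of Myc, was at 0.15 (SE 0.10), and Egln3, a hydroxylase of hypoxia-inducible factor, at -0.16 (SE 0.16). Between the numbers 0 genes of either list were called by limma's F test, with 3 of 10 and 6 of 13 at an unadjusted p under 0.05, against 21% of all genes tested.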
